A study of Mus musculus with 2 samples.

Results

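MicroRNA genes that lie in metabolic host genes were examined in newborn mouse heart. There were 5 of them among the 1973 genes counted, chosen by gene name and position. Mir33 lies in Srebf2, Mir103-1, Mir103-2 and Mir107 lie in the 3 pantothenate kinase genes Pank3, Pank2 and Pank1, and Gm25301 is an annotated feature whose opposite strand holds Mir378a, in Ppargc1b. The samples were whole hearts of 2 B6NCrl mouse pups (a C57BL/6N substrain) at postnatal day 0, pup 1 as replicate 1 and pup 3 as replicate 2. Small RNA under 30 nt from total RNA was sequenced, with 1 library per heart. The labels describe 2 single hearts but list both under the same donor entry. They give no treatment, no genetic change and no second group, and the sex was not collected, so the data allow levels, ratios between genes and the difference between 2 animals, but no contrast between conditions. In whole tissue, fewer cells of a type and less RNA per cell cannot be told apart.

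Each of these host genes encodes a protein of lipid or energy metabolism. Srebf2 encodes a sterol-regulated transcription factor that drives cholesterol synthesis and uptake, and miR-33, made from its intron, is known for repressing the cholesterol exporter Abca1. Pantothenate kinases catalyse the rate-limiting step of coenzyme A synthesis, and miR-103 and miR-107 are known as regulators of insulin sensitivity. Ppargc1b encodes PGC-1beta, a coactivator of mitochondrial genes that is prominent in heart and brown fat, and miR-378a is known for effects on fatty acid oxidation. A microRNA is cut from a hairpin precursor that yields a 5p and a 3p arm, and bases 2 to 8 of the arm in use, the seed, set most of its target choice.

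The precursors are printed because their shared stretches decide which reads can be assigned to a single gene. All 4 sense-strand genes had a RefSeq entry on GRCm38.p6, the same build as mm10. RNA letters run 5′ to 3′, with the annotated 5p and 3p arms in capitals.
Mir33 (chr15:82198122-82198190, plus strand): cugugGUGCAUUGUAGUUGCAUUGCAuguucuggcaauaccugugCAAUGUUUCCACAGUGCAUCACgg
Mir103-1 (chr11:35782396-35782481, plus strand): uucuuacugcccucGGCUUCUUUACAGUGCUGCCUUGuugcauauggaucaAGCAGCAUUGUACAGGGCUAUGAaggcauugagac
Mir103-2 (chr2:131288052-131288137, plus strand): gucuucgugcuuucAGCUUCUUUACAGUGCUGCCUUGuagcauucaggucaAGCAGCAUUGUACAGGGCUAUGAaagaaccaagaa
Mir107 (chr19:34820687-34820773, minus strand): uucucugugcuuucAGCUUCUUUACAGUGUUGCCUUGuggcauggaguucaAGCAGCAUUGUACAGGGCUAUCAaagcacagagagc

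The mature arms are shown next with the seed in capitals, to set the shared seed of the Pank microRNAs beside those of Mir33 and of the related Mir15 family.
miR-33-5p: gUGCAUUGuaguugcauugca
miR-33-3p: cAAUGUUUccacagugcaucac
miR-103-3p: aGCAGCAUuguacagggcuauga
miR-107-3p: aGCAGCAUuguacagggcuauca
miR-103-1-5p: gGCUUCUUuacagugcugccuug
miR-103-2-5p: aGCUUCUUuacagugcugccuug
miR-107-5p: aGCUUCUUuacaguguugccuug
miR-15a-5p: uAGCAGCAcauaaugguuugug
miR-322-5p: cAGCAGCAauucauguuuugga

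The seed of miR-103-3p and miR-107-3p, GCAGCAU, occurred in no other gene of the RefSeq mature table searched, and that of miR-33-5p, UGCAUUG, in Mir33 only. That search left out entries on chr18. The seed of miR-15a-5p and miR-322-5p, AGCAGCA, equals bases 1 to 7 of miR-107-3p, so the groups overlap by an offset of 1 base. Counted from the 5′ end of the arm named first, miR-103-3p and miR-107-3p differ by G22C. The 5p arms of Mir103-1 and Mir103-2 differ by G1A, and those of Mir103-2 and Mir107 by C16U. The miR-103-3p arm is the same at Mir103-1 and Mir103-2, so no read within it can be placed at either gene alone. A read that starts at the 5′ end of miR-107-3p must reach base 22 of 23 before it differs from miR-103-3p, whereas miR-33-5p was unique from 11 bases on among 2202 annotated precursors.

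Windows of 20 nt were compared with all other annotated precursors on both strands. Of the windows of Mir103-1, 12 of 67 occurred elsewhere, as did 16 of 67 for Mir103-2 and 9 of 68 for Mir107, all of them in the other genes of this trio. Mir33 had 0 of 50. In the trio the shared windows fell on the arms and their edges, in the plot of shared windows. The deposited tables keep reads with more than 1 match out of the gene rows, and such reads were 35.9% and 34.6% of all reads in replicates 1 and 2. The counts of Mir103-1, Mir103-2 and, for reads short of base 22, Mir107 are therefore uncertain, and for Mir103-1 and Mir103-2 they hold no read that lies within miR-103-3p if such reads were set apart.

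**Figure D1:**
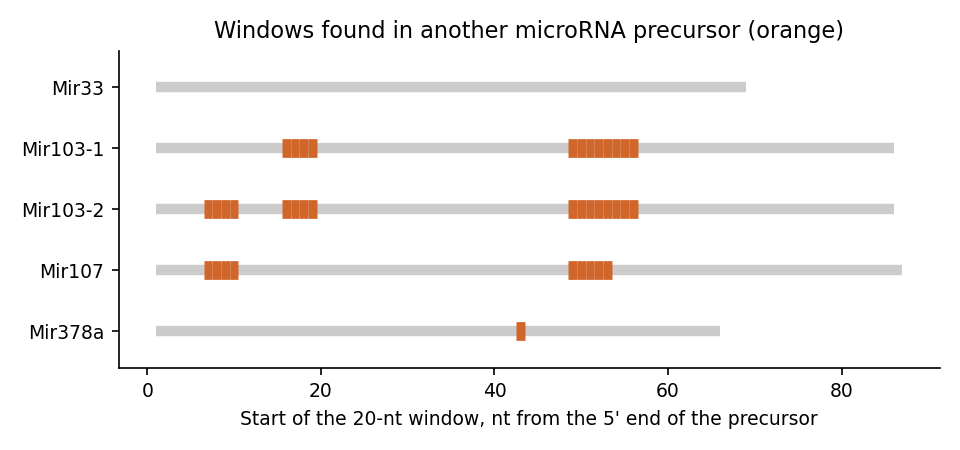
Start positions of 20-nt windows, in nt from the 5′ end of each precursor (grey bar), that also occur in another annotated microRNA precursor (orange). Mir33 has 0 such windows, Mir107 has 9, Mir103-2 has 16, Mir103-1 has 12 and Mir378a has 1.

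By position, Mir33 lies in intron 16 of 18 of Srebf2, on the host's strand, in the principal GENCODE transcript. Mir103-1, Mir103-2 and Mir107 each lie in intron 5 of 6 of Pank3, Pank2 and Pank1, again on the host's strand. The precursors of the trio were 80.2% identical between Mir103-1 and Mir103-2, 80.5% between Mir103-1 and Mir107 and 83.9% between Mir103-2 and Mir107. None of these 4 precursors overlapped an exon of any annotated transcript of its host.

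Gm25301 (ENSMUSG00000093026.1) spans chr18:61397813-61397925 on the plus strand and lies within intron 1 of 11 of Ppargc1b, which is on the minus strand. The 66-nt precursor of Mir378a (chr18:61397835-61397900, minus strand) falls wholly inside it. Mir378a itself was not among the genes counted, and reads on the opposite strand of Gm25301 are the measure in its place. Such a read lies in the 113 nt of Gm25301 on the strand of Mir378a, but the tables do not say which arm it covers.

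Levels are in CPM, for which each library's counts were rescaled to sum to 1000000. The total was the sense-strand gene count for the 4 sense genes (6373797 in replicate 1 and 7630427 in replicate 2), and the gene count of both strands where the opposite strand enters (6864316 and 8224336). A count of 0 allows up to 0.471 and 0.393 CPM on the sense scale, which is what 3 counts are worth. Counting error is all that the intervals and floors include. As tissue checks, the heart muscle microRNAs Mir208a, Mir208b and Mir499 took 12.2% of sense counts in replicate 1 and 12.5% in replicate 2. The neuronal Mir124a-1, Mir124a-2 and Mir124a-3 were at 0 counts in both hearts, but these genes share a mature sequence, and reads with more than 1 match are not in the gene rows. The brown fat microRNAs Mir193b, Mir365-1 and Mir455 took 0.0543% and 0.0507% together.

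The opposite strand of Gm25301, where Mir378a lies, was the most abundant of these 5 measurements. It had 424423 counts in replicate 1 and 513236 in replicate 2, or 6.18% and 6.24% of gene counts of both strands. The mean was 62117 ± 406 CPM on that scale (SD, n = 2), and the SD was 0.654% of the mean. On library totals the counting intervals (61650 to 62011 and 62239 to 62570 CPM) did not overlap and replicate 2 was the higher heart, but that direction turned with 3 other scalings, given with the comparison of hearts. Only 1 count lay on the annotated strand in each heart. By counts of both strands this feature ranked 4 among all genes.

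Most genes had few opposite-strand counts, but Gm25301 was not alone in having nearly all of its counts there. The opposite strand held most of the counts of 20 genes out of 633 with any count in replicate 1, and of 23 out of 687 in replicate 2. Gm25927, Gm24083, Gm25252, Gm24321, Mir142b and Gm25750 each had at least 2040 opposite-strand counts and 0 sense counts in both hearts. Over all other genes, 1.03% of counts in replicate 1 and 1.05% in replicate 2 were on the opposite strand. Of all opposite-strand counts, 86.5% in replicate 1 and 86.4% in replicate 2 came from this feature. The exact Clopper-Pearson 95% intervals ran from 86.4 to 86.6 and from 86.3 to 86.5. The next feature by opposite-strand level, Gm25927, had 24988 and 31929 such counts, so Gm25301 exceeded it by 17.0-fold and 16.1-fold. In all, 12 features had 100 or more opposite-strand counts in each heart. The 4 other members had 0 opposite-strand counts in both hearts.

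**Figure D2:**
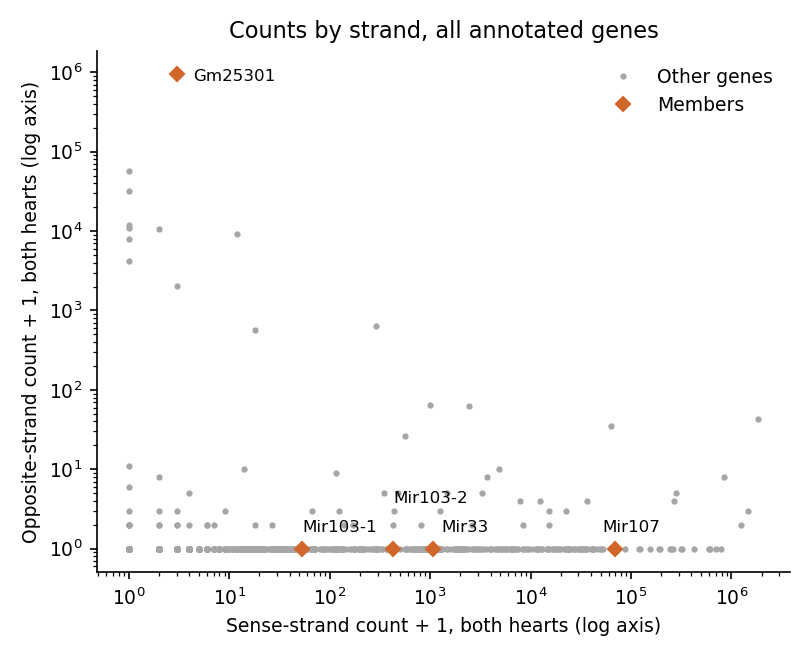
Opposite-strand against sense-strand counts of every annotated gene, summed over 2 hearts with 1 added, on log axes, with the members as diamonds. Gm25301 stands at the top left with 937659 opposite-strand counts, and the other 4 members lie on the lower edge with 0.

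Mir378 has paralogs elsewhere in the genome, and these were far lower. Mir378d had 550 and 689 sense counts (88.3 ± 2.83 CPM), Mir378c had 281 and 440 (50.9 ± 9.60 CPM) and Mir378b had 30 and 37 (4.78 ± 0.101 CPM). Opposite-strand counts at Gm25301 were 493 times the sum of the 3 paralogs in replicate 1 and 440 times that sum in replicate 2. The precursor of Mir378a shared its longest run, 20 nt, with Mir378c, 19 nt with Mir378b and 15 nt with Mir378d. Reads of the 20-nt stretch cannot be told apart between Mir378a and Mir378c.

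Mir107, in Pank1, came next and was the most abundant sense-strand member. It had 32065 counts in replicate 1 and 37118 in replicate 2, or 5031 and 4864 CPM (4948 ± 118, SD, n = 2). The exact Clopper-Pearson 95% intervals were 4976 to 5086 CPM and 4815 to 4914 CPM, and they did not overlap. Mir107 ranked 25 among all genes on the sense strand. Nearest in level were Mir499, the microRNA of the myosin gene Myh7b, at 4977 ± 183 CPM, and Mir125a at 4572 ± 808 CPM. The gap to either was less than the spread between hearts of that neighbour.

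Mir33, in Srebf2, ranked 173 of 717 genes with any sense count. It had 549 counts in replicate 1 and 515 in replicate 2, or 86.1 and 67.5 CPM (76.8 ± 13.2). Replicate 1 was the higher heart, and its interval of 79.1 to 93.6 CPM lay above that of replicate 2, 61.8 to 73.6 CPM. Among 358 genes with 10 or more sense counts in both hearts, the median level was 64.6 CPM. Mir192 above it, at 77.1 ± 5.74 CPM, and Mir376c below it, at 74.8 ± 4.24 CPM, differed from it by less than its own SD.

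Mir103-2, in Pank2, had 155 and 272 counts, or 24.3 and 35.6 CPM (30.0 ± 8.01). Mir103-1, in Pank3, had 21 and 31 counts, or 3.29 and 4.06 CPM (3.68 ± 0.543), with exact Clopper-Pearson 95% intervals of 2.04 to 5.04 and 2.76 to 5.77 CPM that overlapped. Replicate 2 was the higher heart for both genes, and the intervals of Mir103-2, 20.6 to 28.5 and 31.5 to 40.1 CPM, did not overlap. The neighbours of Mir103-2 in level were Mir323 at 30.5 ± 3.06 CPM and Mir302b at 29.5 ± 0.506 CPM. Those of Mir103-1 were Mir1927 at 3.71 ± 2.36 CPM and Mir1298 at 3.59 ± 0.858 CPM. All 4 lay within 1 SD of the member beside them.

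**Figure D3:**
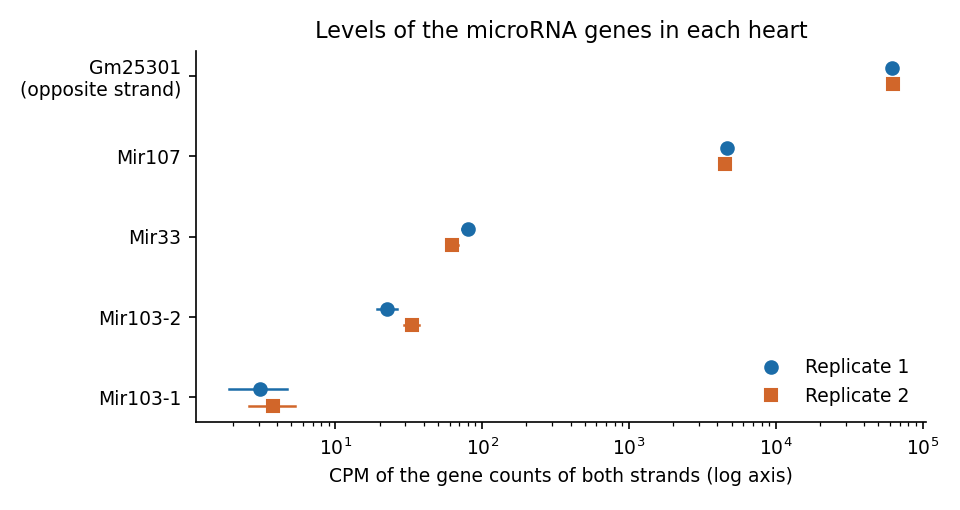
Level of each member in each heart, as CPM of the gene counts of both strands on a log axis, with exact Clopper-Pearson 95% intervals as lines. Both hearts give the order Gm25301 (opposite strand), Mir107, Mir33, Mir103-2, Mir103-1, and no interval of one gene reaches that of the next.

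Set on 1 scale, the counts of both strands, the levels were 62117 ± 406 CPM for the opposite strand of Gm25301, 4592 ± 112 for Mir107, 71.3 ± 12.3 for Mir33, 27.8 ± 7.42 for Mir103-2 and 3.41 ± 0.502 for Mir103-1. The order was the same in each heart. Divided by annotated gene length it stayed so, at 54971, 5278, 103, 32.4 and 3.97 CPM per 100 nt. For Mir103-1 and Mir103-2 the levels cover counted reads only, since reads within the shared miR-103-3p arm cannot be placed at either gene. A count is 1 sequenced read, and how well ligation and amplification take up each sequence was not corrected for.

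Ratios within a heart were compared for 5 pairs. Mir107 had 207 times the counts of Mir103-2 in replicate 1 and 136 times in replicate 2. Against Mir103-1 the ratios were 1527 and 1197. These ratios set a gene with a distinguishable 3p arm against genes that share theirs, and how much of the gap comes from reads listed as matching several places was not tested. Mir103-2 exceeded Mir103-1 by 7.38-fold (exact 95% interval 4.66 to 12.3) and 8.77-fold (6.04 to 13.2). Mir107 exceeded Mir33 by 58.4-fold and 72.1-fold, and the opposite strand of Gm25301 exceeded Mir33 by 773-fold and 997-fold. Each of the 10 exact binomial tests against a 1 to 1 ratio passed, and the largest p-value adjusted by Benjamini-Hochberg was 1.95e-26. They cover counting error only, treat reads as independent molecules and take no account of reads that could not be placed.

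Between the hearts, 3 of these 5 ratios passed Fisher's exact test, which needs no library total. The test covers counting error in 2 libraries only, and no test with spread between animals was run on the ratios. Mir107 over Mir103-2 was lower in replicate 2 (ratio of ratios 0.660, Fisher's exact adjusted p = 8.96e-05). Mir107 over Mir33 was higher there (1.23, Fisher's exact adjusted p = 0.00121), as was the opposite strand of Gm25301 over Mir33 (1.29, Fisher's exact adjusted p = 8.96e-05). Mir103-2 over Mir103-1 did not pass (1.19, Fisher's exact adjusted p = 0.648), nor did Mir107 over Mir103-1 (0.784, Fisher's exact adjusted p = 0.509).

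Gene by gene, the hearts were compared with exact binomial tests given the library totals, adjusted over all 435 genes with 10 or more sense counts. Of these, 31.0% passed, 19.1% higher in replicate 2 and 12.0% higher in replicate 1. Of the 4 sense members 3 passed. Among genes with 100 or more counts 49.1% passed, and the same 3 members have that many. Mir33 was 1.28-fold higher in replicate 1 (log2 ratio -0.35, exact binomial adjusted p = 0.000314). Mir103-2 was 1.46-fold higher in replicate 2 (log2 ratio 0.55, exact binomial adjusted p = 0.000514). Mir107 was higher in replicate 1 by 1.03-fold (log2 ratio -0.05, exact binomial adjusted p = 5.22e-05). Mir103-1, at 1.22-fold higher in replicate 2, did not pass (exact binomial adjusted p = 0.707).

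These tests compare 2 libraries and count sampling noise only, so differences between animals and between library preparations cannot be told apart. With the edgeR exact test and a preset biological coefficient of variation of 0.1, Mir33 (adjusted p = 0.864), Mir103-2 (0.535) and Mir107 (1) no longer passed, and 1 of 435 genes did.

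On the opposite strand, 18 genes had 10 or more counts and 61.1% passed, 33.3% higher in replicate 2 and 27.8% higher in replicate 1. Gm25301 was 1.01-fold higher in replicate 2 (log2 ratio 0.013, exact binomial adjusted p = 1.67e-05), but its direction turned with TMM factors (log2 ratio -0.00107, exact binomial adjusted p = 0.811), with DESeq2 size factors (-0.0120, adjusted p = 0.000129) and with totals that leave out the most abundant gene (-0.0203, adjusted p = 2.84e-11). The level where Mir378a lies thus had no direction between hearts that held across scalings.

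**Figure D4:**
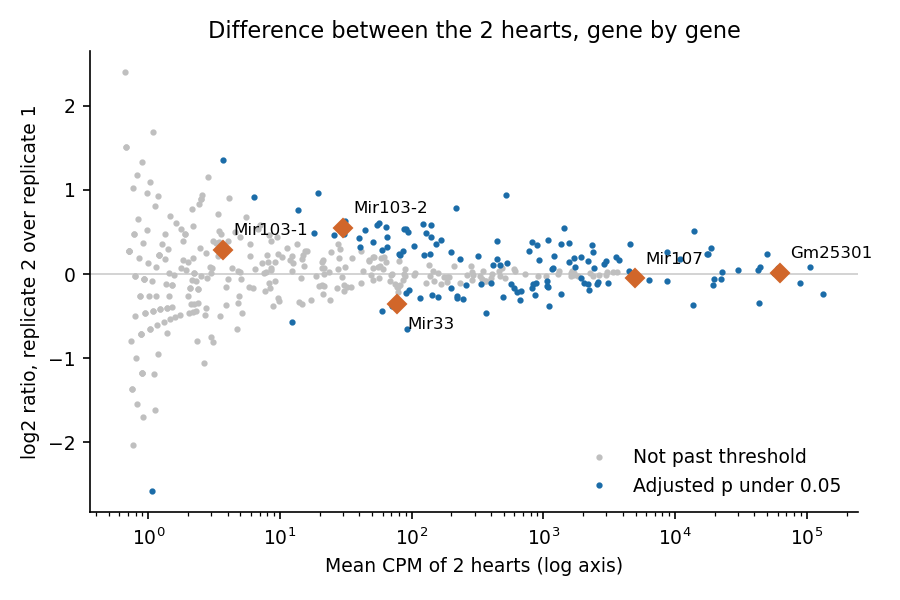
log2 ratio of replicate 2 over replicate 1 against mean CPM on a log axis, for 435 genes tested on the sense strand, with genes past an adjusted p of 0.05 in blue. Members are diamonds, and Gm25301 is placed by its opposite-strand counts. Mir103-2 lies above 0, Mir33 below it, and Mir107 and Gm25301 close to it.

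Some cell type markers also differed between the hearts by the exact binomial test. Of all genes tested 31.0% did so, and 49.1% of those with 100 or more counts. With the preset spread of 0.1 in the edgeR exact test, 1 of 435 genes passed. The endothelial Mir126a took 14.4% of sense counts in replicate 1 and 12.2% in replicate 2. The heart muscle Mir208a was lower in replicate 2 (15419 and 11988 CPM), as was Mir499 (5106 and 4847 CPM). Mir208b was higher in replicate 2 (101723 and 108150 CPM). The smooth muscle microRNAs Mir143 and Mir145a took 9.41% and 8.77%, and Mir143 passed the test while Mir145a did not. The red cell microRNAs took 0.111% and 0.138% together, but went different ways. Mir451a was higher in replicate 2 (931 and 1237 CPM), Mir144 was higher in replicate 1 (112 and 71.2 CPM) and Mir486 did not pass (71.2 and 71.3 CPM). Of the leukocyte microRNAs, at 0.0554% and 0.0595% together, Mir155 was higher in replicate 2 (113 and 169 CPM), and Mir223 (409 and 396 CPM) and Mir150 (32.2 and 29.4 CPM) did not pass. The skeletal muscle microRNAs Mir206 and Mir133b took 0.00767% and 0.0110%, of which Mir206 passed. The hepatocyte Mir122 took 0.00358% and 0.00446% and passed, higher in replicate 2. Among the brown fat microRNAs, Mir455 passed, higher in replicate 1 (410 and 382 CPM). Mir193b (133 and 123 CPM) and Mir365-1 (0.314 and 1.05 CPM) did not pass. The part of these markers in the differences of Mir33, Mir103-2 and Mir107 was not tested.

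The Pank microRNAs belong to a wider group of related seeds. A list of 12 names was used for that group, of which 10 were counted and all of these detected. Together they took 7.00% and 7.07% of sense counts. Mir497 and Mir497a matched no counted gene. Mir497b, a counted feature not on the list, had 5436 and 5049 opposite-strand counts but 1 and 0 sense counts. Whether its opposite strand measures Mir497 was not tested. Mir195b, Mir6342, Mir6353 and Mir6419, which also have the AGCAGCA seed, were not on the list, while Mir503, with AGCAGCG, was. Mir103-1, Mir103-2 and Mir107 held 7.22% of the listed genes' counts in replicate 1 and 6.94% in replicate 2, and Mir107 alone held 99.5% and 99.2% of the counts of these Pank microRNAs. These shares cover counted reads only: reads within the shared miR-103-3p arm cannot be placed at Mir103-1 or Mir103-2, and how far they would change the shares was not tested. Mir322, an X-linked gene of the Mir15 family, led the list at 56684 ± 472 CPM and exceeded Mir107 by 11.2-fold and 11.7-fold. Mir15a followed Mir107 at 3006 ± 20.1 CPM. Between hearts 5 of the 10 passed higher in replicate 2, 2 higher in replicate 1 and 3 did not pass, with a median log2 ratio of 0.05 against 0.02 over all genes tested. Over all genes tested 31.0% passed, and 49.1% of those with 100 or more counts, and with the preset spread of 0.1 in the edgeR exact test 1 of 435 did. Mir16-1 and Mir16-2 each share 4 windows of 20 nt with another precursor, so their counts are uncertain too. Any of their reads with more than 1 match are missing from the list total. The shares of that total and the order within the list therefore cover counted reads only.

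**Figure D5:**
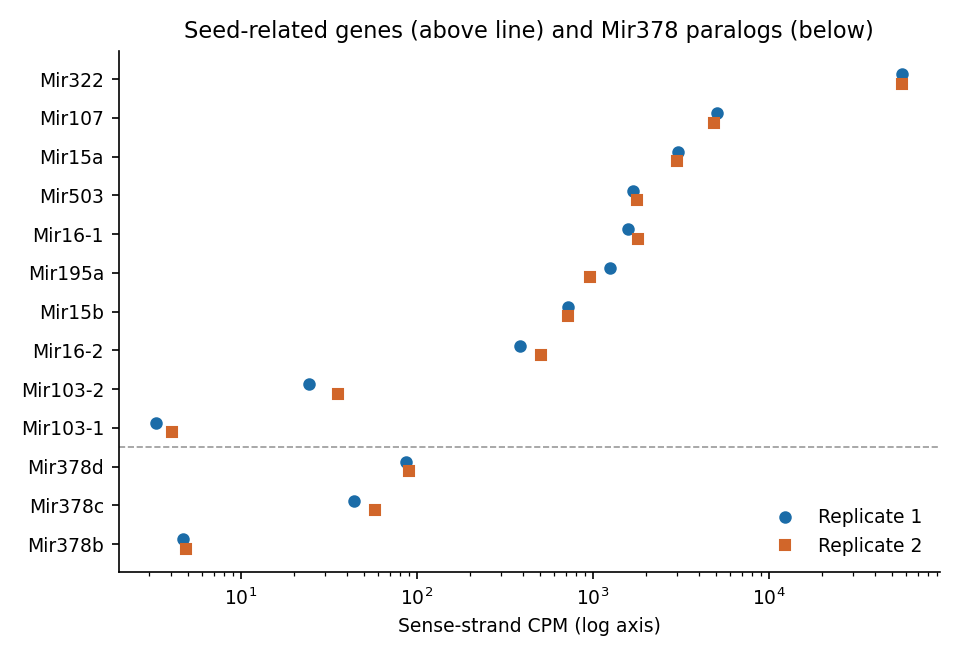
Sense-strand CPM in each heart, on a log axis, of the 10 counted genes on the list of seeds related to miR-15 or miR-107. Under the dashed line are 3 Mir378 paralogs. Mir107 is the member that lies among the Mir15 family genes, while Mir103-2 and Mir103-1 lie below all of those shown. Reads within the shared miR-103-3p arm cannot be placed at Mir103-1 or Mir103-2 and are not in their levels.

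Other microRNAs linked to lipid, glucose or mitochondrial metabolism were widely present. Of 32 names, 30 were counted, and all 30 had 10 or more counts in the hearts together. They took 10.6% and 9.91% of sense counts, and most of that was the smooth muscle Mir143, with 91427 of 106183 CPM in replicate 1 and 85077 of 99080 CPM in replicate 2. Mir143 had 88252 ± 4490 CPM, followed by Mir27b at 2594 ± 115 CPM and Mir106b at 2535 ± 142 CPM. Mir27b shares 1 window of 20 nt with another precursor. Mir26a-1 and Mir26a-2 share 6 such windows each, Mir365-1 and Mir365-2 share 8 each and Mir128-1 shares 4. Mir27a, Mir302a, Mir378c and Mir758 share 1 or 2. The share of the list and this order cover counted reads only, and how far reads with more than 1 match would change them was not tested. Between hearts 4 passed higher in replicate 2, 9 higher in replicate 1 and 17 did not pass, and the median log2 ratio was 0.00345. This stands beside the same 31.0% of all genes and 49.1% of those with 100 or more counts, so nothing particular to these genes is read from it. Among the Mir378 paralogs, Mir378c was 1.31-fold higher in replicate 2 (exact binomial adjusted p = 0.00176), while Mir378b and Mir378d did not pass.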

How the data were processed

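Small RNA libraries of 2 newborn mouse hearts were used, 1 per animal. The authors deposited whole-number read counts per gene with no normalization, on mm10 with GENCODE M4, per the text files deposited beside them. Aligner, counter and trimming: not given in the sources used here. Of 3 count columns, the first equals the sum of the others in every gene row. From the values, the second was read as the gene's strand and the third as the opposite strand. Rows that name no gene (unmapped 12.6% and 15.5% of reads, several places 35.9% and 34.6%, no gene 1.93% and 2.28%) were left out of totals.

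Names and positions were taken from GENCODE M21, also on mm10, which held 1894 of the 1973 identifiers. The precursors searched for shared windows, shared runs and identity were from GENCODE M21 too. The printed precursors and mature arms were from RefSeq GRCm38.p6. Log2 ratios used 0.5 added counts. Tests were 2-sided exact binomial and Fisher's exact tests. Only the exact binomial comparison of hearts was checked on simulated data, which held counting noise but no spread between animals. Calls are p-values under 0.05 after adjustment by Benjamini-Hochberg. Members and lists were chosen with earlier results of these data known. Named genes were the members, the genes next above and below each in mean CPM, and the 3 most abundant of each list; the Mir378 paralogs, the cell type markers, Mir16-1 and Mir16-2, and the features high on the opposite strand were named in addition, the last after their values were seen. The alternatives were other totals and scalings, count minimums of 1 and 100, 5 added counts, counts of both strands, each heart alone, and edgeR exact tests with preset spread. Python 3.11.15 was used with pandas 2.3.3, SciPy 1.17.1, NumPy 2.4.6 and matplotlib 3.10.9, and R 4.3.3 with DESeq2 1.42.0 for size factors and edgeR 4.0.16.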

Additional observations from a re-analysis of the deposited data

How the results depend on the processing

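Each heart alone kept the order of the 5 members, and their levels then ranged from 67.5 to 86.1 CPM for Mir33, 3.29 to 4.06 for Mir103-1, 24.3 to 35.6 for Mir103-2, 4864 to 5031 for Mir107 and 61830 to 62405 for the opposite strand of Gm25301. With the total of both strands, or counts of both strands, Mir107 had 4592 CPM, a change set by the larger total. With edgeR exact tests at a preset coefficient of 0.1, 1 gene differed on the sense strand (1 higher in replicate 2 and 0 higher in replicate 1, 29 at an unadjusted p under 0.05) and 1 on the opposite strand (1 higher in replicate 2 and 0 in replicate 1). At 0.2 the edgeR exact test called 0 on either strand and in either direction (4 and 1 unadjusted), against 135 and 11 by the exact binomial test. The log2 ratio of Gm25301 reversed to -0.00107 with TMM factors, -0.0120 with DESeq2 size factors and -0.0203 without the most abundant gene in the totals. Under those settings Mir33, Mir103-2 and Mir107 kept their direction and their side of the threshold. Mir103-1, with 52 counts in all, gives the least precise values, and only differences larger than its intervals were detectable. No paired analysis was possible because there is 1 group.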
